A study of Mus musculus with 2 samples.

Results

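The 39 Hox genes of the mouse lie in the Hoxa, Hoxb, Hoxc and Hoxd clusters, and they were chosen here by symbol alone, as the protein-coding genes named Hoxa, Hoxb, Hoxc or Hoxd followed by a number. They are 39 of the 21098 protein-coding genes whose strand was known. Hox genes encode homeodomain transcription factors that give cells of the embryo their position along the head to tail axis. Within a cluster they lie in the order in which they are used along that axis, and in embryonic stem cells their promoters are known as Polycomb-bound and silent or nearly so. Monomethylation of lysine 4 on histone H3, H3K4me1, is a chromatin mark of enhancers and of the sides of promoters.

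The mark was mapped by chromatin immunoprecipitation and sequencing in 2 biological replicates of E14TG2a.4, a line of male mouse embryonic stem cells from strain 129/Ola. These replicates form the only group, no treatment is named, and control libraries and other conditions were not analysed here. The values come from peak lists that the authors made on mm10, with 313453 peaks in replicate 1 and 325226 in replicate 2, which give intervals and no read counts, so the sequencing depth is unknown. Coverage below means the percent of bases that lay in peaks, and every SD is over the 2 replicates of this line and measures only the spread between them.

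Over the autosomes, coverage was 8.47% in replicate 1 and 8.64% in replicate 2. A peak of the authors' list of replicated peaks lay within 2 kb of the transcription start site (TSS) at 10 of 10 embryonic stem cell marker genes, 4 of 6 fibroblast markers and 2 of 4 markers of differentiated tissues, against 72.8% of all protein-coding genes. The fibroblast markers Col3a1 and Dcn and the liver genes Alb and Afp had no covered base within 2 kb of the TSS. Median coverage within 2 kb of the TSS was 37.5% over the stem cell markers and 50.4% over the fibroblast markers. The level in that window thus did not set the labelled cell type apart. Within 20 kb of the TSS the medians did differ. They were 60.1% over the stem cell markers, 17.4% over the fibroblast markers and 14.1% over the tissue markers, against 13.9% over all genes. H3K4me1 does not measure transcription, and the part of other cells was not tested.

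Promoter sequence is shown for the Hox genes with the highest or lowest coverage near the TSS of their cluster, to let the covered bases be read in place. Each runs from 250 bases before to 50 bases after a RefSeq start on GRCm38.p6, along the gene's strand, and capitals mark bases that lay in peaks of both replicates. Hoxa5, which takes part in lung and neck skeleton formation, was the highest in its cluster (chr6:52204538-52204837, minus strand), and its capitals covered 84 bases at the upstream end.
Hoxa5: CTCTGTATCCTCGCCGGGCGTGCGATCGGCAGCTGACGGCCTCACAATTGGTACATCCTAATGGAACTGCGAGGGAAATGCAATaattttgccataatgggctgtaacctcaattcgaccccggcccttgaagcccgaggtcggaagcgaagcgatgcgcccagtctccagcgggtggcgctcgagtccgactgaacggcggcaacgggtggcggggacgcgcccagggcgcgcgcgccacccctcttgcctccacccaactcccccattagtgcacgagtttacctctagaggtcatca
Hoxa6, a gene of the trunk, was the lowest of the Hoxa genes (chr6:52208623-52208922, minus strand), with 95 bases in capitals that included the start.
Hoxa6: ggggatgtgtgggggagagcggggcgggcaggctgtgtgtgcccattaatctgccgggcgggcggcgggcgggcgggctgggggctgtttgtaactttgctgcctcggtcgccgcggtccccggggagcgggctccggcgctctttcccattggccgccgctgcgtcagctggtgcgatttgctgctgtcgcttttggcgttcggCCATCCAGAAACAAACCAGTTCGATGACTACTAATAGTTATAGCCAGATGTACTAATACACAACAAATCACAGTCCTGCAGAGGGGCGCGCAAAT
Hoxc4 was the lowest of the Hoxc genes by the 5′ end of its gene record, and the start held in the promoter table lies 16298 bp further downstream (chr15:103034145-103034444, plus strand). All 300 bases there lay in peaks of both replicates.
Hoxc4: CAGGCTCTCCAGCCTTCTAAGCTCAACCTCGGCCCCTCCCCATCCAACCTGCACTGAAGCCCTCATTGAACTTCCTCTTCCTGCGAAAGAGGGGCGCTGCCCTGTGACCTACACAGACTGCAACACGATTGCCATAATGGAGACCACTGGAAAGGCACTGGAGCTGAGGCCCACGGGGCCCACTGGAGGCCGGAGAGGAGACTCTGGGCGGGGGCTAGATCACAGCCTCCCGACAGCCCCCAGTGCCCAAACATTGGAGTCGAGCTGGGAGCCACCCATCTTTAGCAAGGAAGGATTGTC
Hoxd11, a gene of the forearm and kidney, was the highest of the Hoxd genes by the 5′ end of its gene record. It has a pair of starts in the table. The upstream start (chr2:74679308-74679607, plus strand) was covered over all 300 bases and holds 4 CpG dinucleotides, and the downstream start (chr2:74682073-74682372, plus strand) had 0 covered bases and holds 25 CpG.
Hoxd11 upstream start: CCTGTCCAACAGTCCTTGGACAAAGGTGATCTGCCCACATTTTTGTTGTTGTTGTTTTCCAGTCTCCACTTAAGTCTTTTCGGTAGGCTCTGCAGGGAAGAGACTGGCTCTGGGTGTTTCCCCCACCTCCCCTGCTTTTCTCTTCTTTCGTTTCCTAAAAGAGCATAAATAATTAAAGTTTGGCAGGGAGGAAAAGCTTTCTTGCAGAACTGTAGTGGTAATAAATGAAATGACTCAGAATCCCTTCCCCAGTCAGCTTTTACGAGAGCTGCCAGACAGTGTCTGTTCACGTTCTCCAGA
Hoxd11 downstream start: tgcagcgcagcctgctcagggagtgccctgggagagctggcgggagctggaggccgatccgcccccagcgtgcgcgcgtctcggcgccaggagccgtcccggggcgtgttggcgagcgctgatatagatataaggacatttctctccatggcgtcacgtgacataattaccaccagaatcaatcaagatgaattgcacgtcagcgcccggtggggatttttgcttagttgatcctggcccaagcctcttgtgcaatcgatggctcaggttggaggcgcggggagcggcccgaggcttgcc
Hoxd1, known for its part in pain-sensing neurons, was the lowest of the Hoxd genes (chr2:74762730-74763029, plus strand), with 83 bases in capitals, all of them upstream of the start.
Hoxd1: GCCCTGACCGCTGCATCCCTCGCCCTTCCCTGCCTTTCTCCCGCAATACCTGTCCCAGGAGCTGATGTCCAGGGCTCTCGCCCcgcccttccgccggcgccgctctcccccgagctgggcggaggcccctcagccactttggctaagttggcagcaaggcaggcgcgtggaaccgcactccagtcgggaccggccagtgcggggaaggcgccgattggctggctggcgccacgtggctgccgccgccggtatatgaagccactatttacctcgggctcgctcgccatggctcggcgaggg
Hoxb13, Hoxb3 and Hoxc12 are named by the same rule.

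All 4 clusters were densely covered. From the first to the last base of its Hox genes, the Hoxa cluster (chr6:52155367-52260880, 105514 bp, 11 genes) was covered over 49.0% in replicate 1 and 40.6% in replicate 2, a mean of 44.8% ± 5.91 (SD, n = 2). The Hoxc cluster (chr15:102921131-103036856, 115726 bp, 9 genes) was covered over 45.5% in replicate 1 and 35.4% in replicate 2, a mean of 40.5% ± 7.15. In the Hoxd cluster (chr2:74668225-74765142, 96918 bp, 9 genes) replicate 1 had 41.8% and replicate 2 had 30.5%, a mean of 36.2% ± 8.0. The Hoxb cluster, the longest, with Hoxb13 far from the rest (chr11:96194316-96368254, 173939 bp, 10 genes), had 35.8% in replicate 1 and 30.4% in replicate 2, a mean of 33.1% ± 3.81. In each replicate Hoxa was the most covered cluster and Hoxc the second, and Hoxb the least, by a narrow margin to Hoxd in replicate 2. The place of Hoxb depended on the span and the list: from Hoxb9 to Hoxb1 its mean was 40.3%, and with the 50000 strongest peaks of each list it had 12.8% and Hoxd 9.68%. The means of Hoxb and Hoxd differed by less than the spread between the replicates, and so did those of Hoxa and Hoxc and of Hoxc and Hoxd. For scale, consecutive windows of 100 kb over the autosomes (24592 windows) had a median of 2.16% in replicate 1 and 2.18% in replicate 2, and a 90th percentile of 27.4% and 28.1%, so each cluster lay above the 90th percentile in both replicates.

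Summed over all 4 clusters, coverage was 42.1% in replicate 1 and 33.8% in replicate 2 inside them, against 16.7% and 15.3% in the 100 kb on each side of them. The means were 38.0% ± 5.87 inside and 16.0% ± 0.97 in the flanks (SD, n = 2), and the 2 sets of values did not overlap. The map of coverage along each cluster shows this as a block of adjoining peaks over the genes with sparser and more unequal peaks beyond them.

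**Figure D1:**
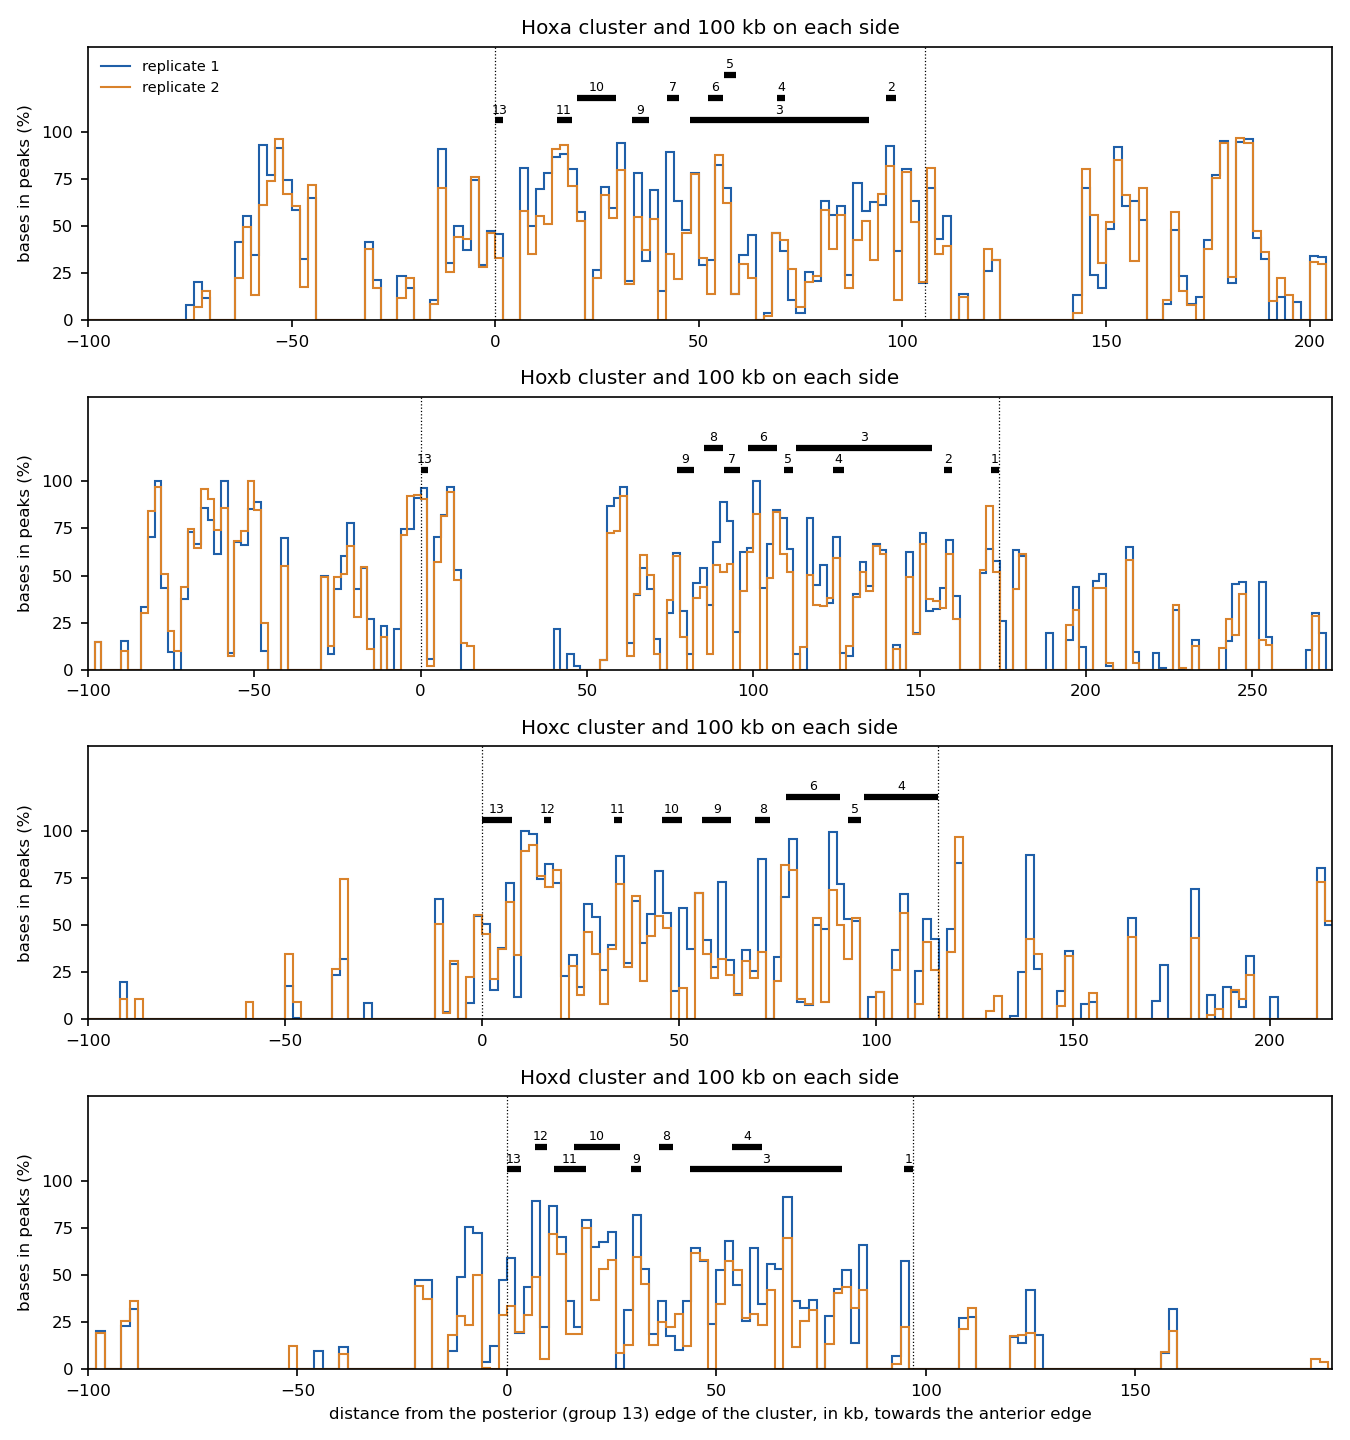
Percent of bases in peaks in bins of 2 kb (y axis) along each Hox cluster and the 100 kb on each side, in kb from the group 13 edge (x axis), with 1 line per replicate. Black bars are Hox genes with their numbers and dotted lines the cluster edges. Peaks follow each other closely over most of the genes. Longer gaps lie between Hoxb13 and Hoxb9, between Hoxb2 and Hoxb1 and between Hoxd3 and Hoxd1. The posterior flanks of Hoxc and Hoxd and the anterior flank of Hoxd are mostly empty.

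The flanks differed widely from cluster to cluster. Posterior here means the side of the group 13 gene, and anterior the side of the gene with the lowest number. The posterior flank of Hoxb, which holds Calcoco2 and Ttll6, had 36.7% in replicate 1 and 37.1% in replicate 2, more than the Hoxb cluster itself. Within it the step from 60 to 70 kb before Hoxb13 reached 73.4% in replicate 1 and 80.0% in replicate 2. On the Hoxa side without a protein-coding gene, the anterior flank, coverage was 27.5% in replicate 1 and 28.3% in replicate 2. The most covered step there lay 70 to 80 kb from the cluster, with 74.4% in replicate 1 and 73.0% in replicate 2, and nearer to the cluster the long non-coding gene Halr1 was covered over 52.3% and 52.5% of its length. The posterior flank of Hoxa had 22.7% in replicate 1 and 19.8% in replicate 2, and its most covered step, 50 to 60 kb from Hoxa13 at the homeobox gene Evx1, had 74.0% and 62.4%.

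Other flanks were sparse. Those of Hoxc had 5.28% in replicate 1 and 6.79% in replicate 2 on the posterior side, and 14.5% and 10.9% on the anterior side. Those of Hoxd had 9.20% in replicate 1 and 6.64% in replicate 2 on the posterior side, where Lnpk and Evx2 lie, and 3.71% and 2.94% on the anterior side towards Mtx2. The anterior flank of Hoxb, at Skap1, had 14.1% in replicate 1 and 10.3% in replicate 2. The first 10 kb beyond Hoxd1 had no covered base in either replicate, whereas the first 10 kb beyond Hoxd13 had 42.1% in replicate 1 and 20.6% in replicate 2. Averaged over the 8 flanks, the nearest 10 kb were covered over 31.8% in replicate 1 and 27.5% in replicate 2, and the farthest 10 kb over 8.46% and 7.17%. The steps between did not decline evenly: at 50 to 60 kb the average was 23.1% in replicate 1 and 20.9% in replicate 2. Enhancers that lie farther out in the gene deserts beside Hoxa and Hoxd are outside the 100 kb described.

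**Figure D2:**
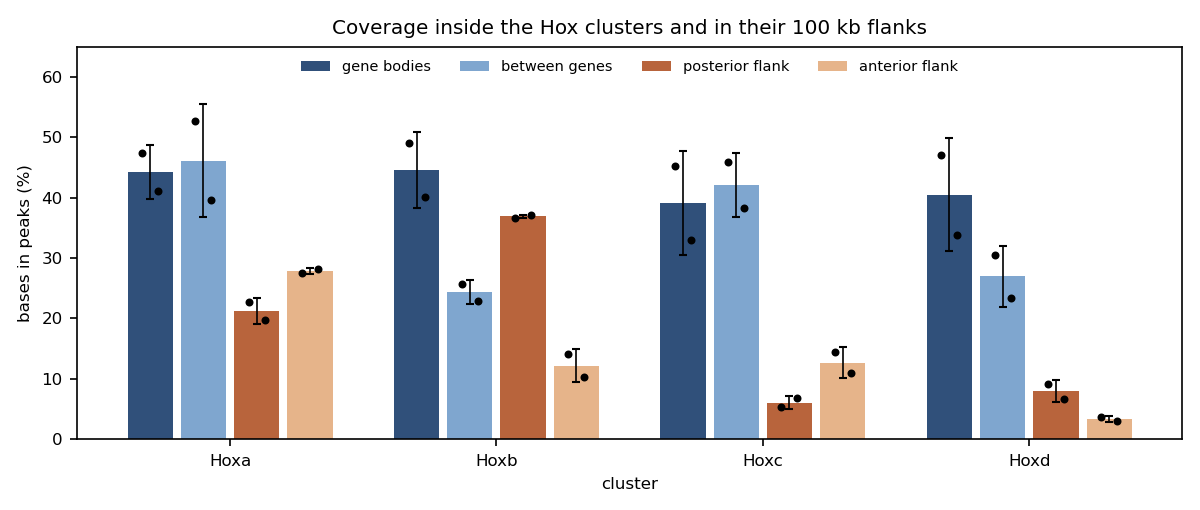
Percent of bases in peaks (y axis) in the gene bodies, the sequence between genes and the posterior and anterior flanks of each cluster (x axis). Bars are means of the replicates, points the replicates with replicate 1 on the left, and error bars the SD over the 2 replicates; the posterior flank of Hoxb, at 36.9%, is the only flank above the sequence between the genes of its own cluster.

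Inside the clusters the mark was not limited to genes. Gene bodies here are the union of the gene records. The long records of Hoxa3, Hoxb3 and Hoxd3 hold other Hox genes, so the sequence around those genes counts as gene body. Over all clusters, Hox gene bodies were covered over 47.3% in replicate 1 and 37.3% in replicate 2, and the sequence between them over 35.4% and 29.2%, means of 42.3% ± 7.06 and 32.3% ± 4.33 (SD, n = 2). In Hoxa the means were close, 44.2% ± 4.44 in gene bodies and 46.2% ± 9.32 between genes, and likewise in Hoxc, 39.2% ± 8.61 and 42.1% ± 5.36. In Hoxb they stood apart, 44.6% ± 6.26 in gene bodies and 24.4% ± 1.95 between genes, and in Hoxd, 40.5% ± 9.39 and 27.0% ± 5.05. For both of these clusters each replicate had more in gene bodies than either replicate had between genes.

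The longest intervals of Hoxb and Hoxd were sparsely covered. The 74719 bp from Hoxb13 to Hoxb9 were covered over 23.0% in replicate 1 and 21.4% in replicate 2, and the 14708 bp from Hoxd3 to Hoxd1 over 22.1% and 19.5%. The 11725 bp from Hoxb2 to Hoxb1 had 23.2% in replicate 1 and 24.1% in replicate 2. These intervals were therefore near the level of the flanks of Hoxa. At the other end, the 1250 bp from Hoxa11 to Hoxa10 had 91.8% in replicate 1 and 78.8% in replicate 2, and the 8011 bp from Hoxc13 to Hoxc12 had 67.3% and 71.0%. Between Hoxc5 and Hoxc4 no base of 667 bp was covered in either replicate. The 278 bp from Hoxb8 to Hoxb7 were wholly covered in replicate 1 and not at all in replicate 2, so short intervals can rest on a single peak edge.

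The longest stretch without a peak in either replicate was 24908 bp in Hoxb (chr11:96209814-96234721, between Hoxb13 and Hoxb9). In Hoxd it was 7976 bp (chr2:74754111-74762086, between Hoxd3 and Hoxd1), in Hoxc 4886 bp inside the Hoxc4 record (chr15:103021512-103026397), and in Hoxa 4701 bp that reach into the Hoxa13 record (chr6:52254500-52259200). Single peaks were short against these clusters. The 219 replicated peaks inside the clusters had a median width of 800 bp and a median signal value of 4.99, against 692 bp and 4.22 over the authors' whole list, the signal value being the authors' own score of a peak. The widest was 3108 bp in Hoxc between Hoxc13 and Hoxc12 (chr15:102931940-102935047), which also had the highest signal of that cluster, 8.06. The others were 2816 bp at Hoxd11 (chr2:74678434-74681249), 2678 bp at Hoxb1 (chr11:96364789-96367466) and 2636 bp between Hoxa13 and Hoxa11 (chr6:52251876-52254511). By signal, the leading peak of Hoxd (9.97) lay just before Hoxd4, inside the long Hoxd3 record. That of Hoxb lay just before Hoxb1 (9.12).

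Each Hox gene had a replicated peak within 2 kb of the TSS, 39 of 39, against 72.8% of all protein-coding genes, a count that says little about how much of the window was marked. Within 2 kb of the TSS, median coverage was 56.5% in replicate 1 and 50.5% in replicate 2 for the Hox genes, against 34.5% and 28.7% over all protein-coding genes. As the mean of the replicates the medians were 52.9% ± 4.24 and 31.9% ± 4.12 (SD, n = 2), and 33 of 39 Hox genes lay above the median of all genes, as do 50% of all genes. The windows are not independent, since Hox genes are neighbours, and the windows of Hoxb5 and Hoxb3 share 412 bp. By cluster the median was 63.8% in Hoxb, 53.5% in Hoxa, 52.9% in Hoxc and 39.7% in Hoxd. The plot of values by gene shows that the genes of a cluster differed more from each other than the clusters did.

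**Figure D3:**
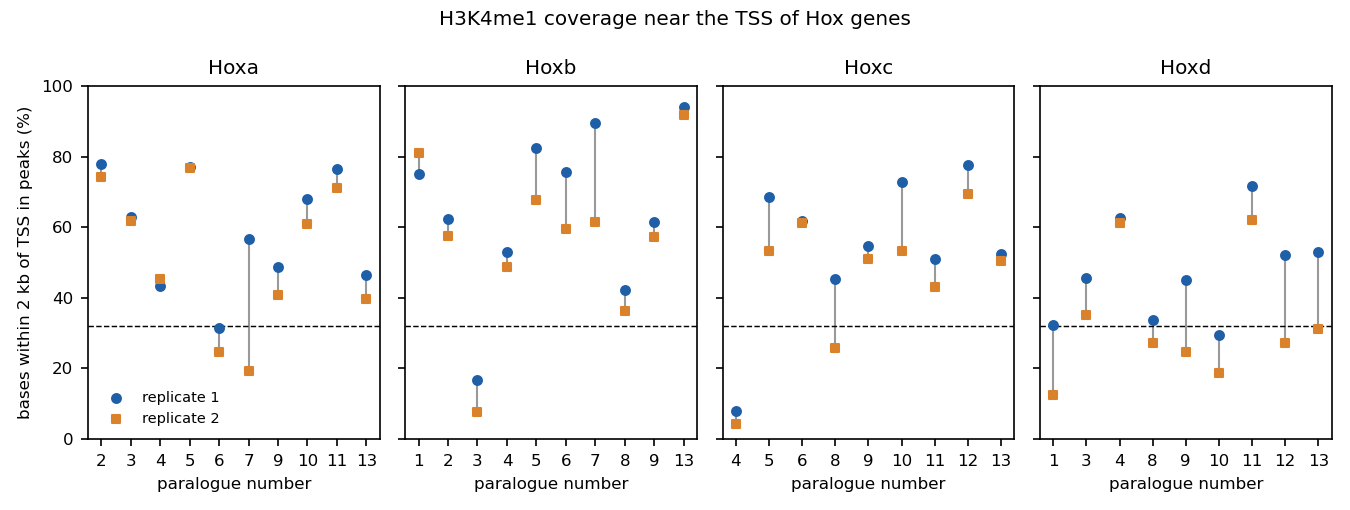
Percent of bases within 2 kb of the TSS in peaks (y axis) for Hox genes by paralogue number (x axis), with replicate 1 as circles and replicate 2 as squares. The dashed line is the median of all protein-coding genes, 31.9%; Hoxb13 stands at the top, and Hoxc4 and Hoxb3 at the bottom of the scale.

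Among the Hoxa genes, Hoxa5 had 77.1% in replicate 1 and 76.7% in replicate 2, a mean of 76.9% ± 0.23 (SD, n = 2). Hoxa2, the selector gene of the second pharyngeal arch, had 78.0% in replicate 1 and 74.3% in replicate 2, a mean of 76.1% ± 2.60. The replicates of these genes were close, and their windows were marked over most of their length. At the low end, Hoxa6 had 31.5% in replicate 1 and 24.7% in replicate 2, a mean of 28.1% ± 4.82. Hoxa7, a gene of the thoracic skeleton, had 56.5% in replicate 1 and 19.3% in replicate 2, a mean of 37.9% ± 26.3, the widest spread of any Hox gene. Its rank therefore depends on the replicate. Hoxa3, needed for the thymus and parathyroid, had 63.0% in replicate 1 and 61.8% in replicate 2. Hoxa10, needed for the uterus, had 68.1% in replicate 1 and 61.0% in replicate 2, and Hoxa11, a gene of the forearm and kidney, 76.5% and 71.0%. At the record starts those 3 genes all lay well above the level of all genes. At its downstream start Hoxa10 had 47.2% in replicate 1 and 43.0% in replicate 2. Hoxa4, Hoxa9 and Hoxa13, the last of which patterns the digits, lay closer together, with means from 43.1% to 44.7%.

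Hoxb13, which acts in the prostate and tail, was the most covered Hox gene, with 93.9% in replicate 1 and 91.7% in replicate 2, a mean of 92.8% ± 1.59 (SD, n = 2). Hoxb1, which gives the fourth rhombomere of the hindbrain its identity and lies at the opposite end of the cluster, had 75.2% and 80.9%, a mean of 78.1% ± 4.05. Both ends of the cluster were thus highly covered. Hoxb3, another hindbrain gene, had 16.7% in replicate 1 and 7.67% in replicate 2, a mean of 12.2% ± 6.42, and all of it was upstream of the TSS. Hoxb8, known from microglia and behaviour in mice, had 42.4% and 36.2%, a mean of 39.3% ± 4.37. At its downstream start Hoxb8 had 53.6% in replicate 1 and 32.8% in replicate 2, and that start base lay in no peak of either replicate. Hoxb3 was thus the only Hoxb gene below the median of all genes. Its value was taken at the 5′ end of a record of 40830 bp that also spans Hoxb4. The promoter table held no start of Hoxb3 to set beside it. Hoxb4, used in blood stem cells, had 53.0% in replicate 1 and 48.6% in replicate 2, and Hoxb5 82.3% and 67.7%. Hoxb2, Hoxb6, Hoxb7 and Hoxb9 had means from 59.5% to 75.4%.

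Hoxc12 led the Hoxc genes with 77.6% in replicate 1 and 69.4% in replicate 2, a mean of 73.5% ± 5.81 (SD, n = 2). Hoxc10, a gene of lumbar motor neurons, had 72.8% and 53.3%, a mean of 63.0% ± 13.8. Both lay above the median of all genes in each replicate. Hoxc4 had 7.97% in replicate 1 and 4.37% in replicate 2, a mean of 6.17% ± 2.54, the lowest of all Hox genes. At its other start, printed above, the same window had 60.8% and 37.6%, so its value depended on the start that was taken. Hoxc8, a gene of the trunk and forelimb motor neurons, had 45.4% in replicate 1 and 25.9% in replicate 2, a mean of 35.6% ± 13.8, none of it upstream of the TSS. Hoxc5 had 68.5% and 53.2%, Hoxc6 61.8% and 61.2%, and Hoxc11 51.1% and 43.2%. Means of Hoxc9 and of Hoxc13, which acts in hair and nails, were 52.9% and 51.5%.

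The Hoxd genes had the lowest median of the clusters. Hoxd11 had 71.6% in replicate 1 and 61.9% in replicate 2, a mean of 66.8% ± 6.86 (SD, n = 2), and Hoxd4, of the neck vertebrae, had 62.5% and 61.1%, a mean of 61.8% ± 1.01. At the record starts these 2 were the only Hoxd genes above 50% in both replicates. At its downstream start Hoxd11 had 53.1% in replicate 1 and 39.8% in replicate 2, so its place depended on the start that was taken. Hoxd1 had 32.3% in replicate 1 and 12.5% in replicate 2, a mean of 22.4% ± 14.0, with no covered base downstream of the TSS in replicate 2. Hoxd10, a gene of hindlimb motor neurons, had 29.4% and 18.7%, a mean of 24.1% ± 7.51, and at its downstream start 78.5% and 63.4%. Hoxd10, like Hoxc4, was thus low at its record start and well covered at its other start. Hoxd8 had 33.7% in replicate 1 and 27.3% in replicate 2. Hoxd3, Hoxd9, Hoxd12 and the digit gene Hoxd13 had means from 34.8% to 42.1%, each with the lower value in replicate 2.

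Paralogue groups are the genes in different clusters that share a number and descend from a common ancestor. Joined into anterior, central and posterior sets, their medians followed the order along the axis in replicate 1 but not in replicate 2. By the mean of the replicates, median coverage near the TSS was 56.7% over the 8 anterior genes of groups 1 to 3. It was 50.8% over the 15 central genes of groups 4 to 8, and 52.2% over the 16 posterior genes of groups 9 to 13. In the same order the medians were 61.3%, 56.5% and 53.9% in replicate 1, and 52.2%, 48.6% and 50.8% in replicate 2. Within groups the spread was often wide. Group 13 ran from 42.1% for Hoxd13 to 92.8% for Hoxb13, and group 1 from 22.4% for Hoxd1 to 78.1% for Hoxb1. Group 5 stayed high, from 60.8% for Hoxc5 to 76.9% for Hoxa5, and group 8 stayed low, from 30.5% for Hoxd8 to 39.3% for Hoxb8. Each group has at most 4 genes, so these are descriptions of those genes.

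Around the start, coverage of the Hox genes and of all genes differed in shape. In the first 200 bp downstream of the TSS, coverage averaged 63.9% in replicate 1 and 54.2% in replicate 2 over the Hox genes, against 20.3% and 15.3% over all protein-coding genes. Farther in, between 1000 and 1200 bp, it was 66.3% in replicate 1 and 49.9% in replicate 2 over the Hox genes, against 45.4% and 40.6% over all genes. The average of all genes thus had a trough at the start, against 38.4% in replicate 1 and 33.8% in replicate 2 at 600 to 800 bp upstream. The Hox average also dipped, but just upstream of the start. It was 64.8% in replicate 1 and 60.3% in replicate 2 at 600 to 800 bp upstream, and 55.6% and 43.8% at 200 to 400 bp upstream. The average of the Hox genes within 400 bp of the start was no lower than 55.6% in replicate 1 and 43.8% in replicate 2, and this difference in shape was not tested.

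**Figure D4:**
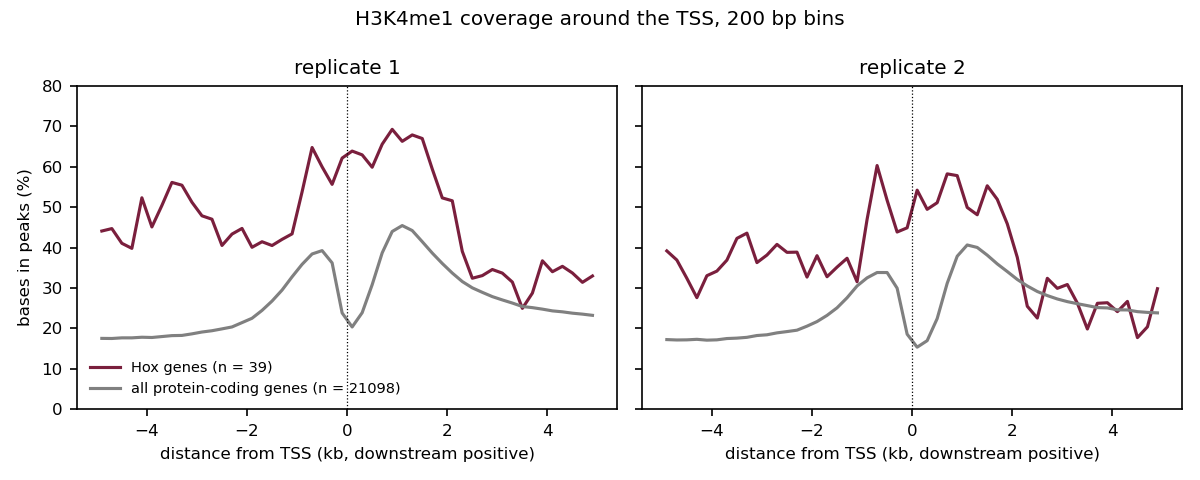
Percent of bases in peaks in bins of 200 bp (y axis) by distance from the TSS in kb (x axis), averaged over the 39 Hox genes and the 21098 protein-coding genes, in replicate 1 (left) and replicate 2 (right). In the first bin downstream the Hox line is at 63.9% and 54.2%, where the line of all genes is at its lowest point near the start, 20.3% and 15.3%.

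The start base itself lay in a peak at 24 Hox genes in replicate 1 and 19 in replicate 2. It did so in both replicates at 19 of 39, or 48.7%, against 13.4% of all protein-coding genes, and in neither at 15. Those covered in both replicates included Hoxa2, Hoxa3, Hoxa6, Hoxa10 and Hoxa11, then Hoxb1, Hoxb4, Hoxb5, Hoxb8 and Hoxb13, then Hoxc5, Hoxc6, Hoxc10, Hoxc11 and Hoxc12, and Hoxd8, Hoxd10 and Hoxd11. With the starts of the promoter table, which differ at 6 genes, the count was 17. With the mm9 lists and the GENCODE vM1 starts together it was 26 of 39, or 66.7%, against 20.1% of all genes. Among the 50000 peaks with the highest signal it was 6 of 39, or 15.4%, against 4% of all genes. Of the starts covered in both replicates, that kept 6 of 19 at Hox genes, or 31.6%, against 29.9% over all genes, a like share. Coverage was higher downstream than upstream of the TSS in both replicates at 21 of 39 Hox genes, against 37.4% of all genes, many of which had no covered base. Counting only genes with the same direction in both replicates, downstream was higher at 21 of 33 Hox genes, or 63.6%, against 61% of all genes, which are close.

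The promoter sequences allowed the same count beside base composition. Windows in the table (24 windows of 22 Hox genes) had a median CpG observed to expected ratio of 0.626, against 0.567 over the 21263 windows of all genes. The start lay in peaks of both replicates at 11 of the 24 Hox windows, or 45.8%, against 12.1% of all windows. In the third of windows richest in CpG, with a ratio of at least 0.753, it did so at 3 of 11 Hox windows (Hoxa10 at its downstream start, Hoxa11 and Hoxa6), against 1.02% of all windows. Among the other windows it did so at 8 of 13, or 61.5%, against 17.6%. The 6 Hox windows with no covered base in either replicate were those of Hoxa9, Hoxa13, Hoxd4, Hoxd9, Hoxd13 and the downstream start of Hoxd11, or 25% of the Hox windows, against 58.7% of all windows. Among the 6, Hoxa13 with 45 CpG and Hoxd13 with 37 are rich in CpG, while Hoxa9 and Hoxd4 have 4 each, so uncovered starts were found at both extremes.

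Hox gene bodies were also more covered than those of other genes, with a median of 54.9% in replicate 1 and 41.4% in replicate 2, against 12.4% and 12.2% over all protein-coding genes. This was not particular to them: the Dlx genes had 69.0% and 57.3%, and the Iroquois genes 50.2% and 33.1%. Gene length was not matched in this comparison, and its part was not tested. For the mm9 lists, which have a genome sequence at hand, the cluster bases in peaks of both replicates were 52.5% GC with a CpG ratio of 0.482, and the bases in neither were 45.4% GC with a ratio of 0.276. The contrast was wide in Hoxc, 0.466 against 0.160, and narrow in Hoxd, 0.471 against 0.451.

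The replicates differed over the Hox genes in 1 direction. Coverage near the TSS was higher in replicate 1 at 37 of 39 Hox genes, against 57.1% of all protein-coding genes, of which 5280 had equal values. Of the genes whose replicates differed, replicate 1 was higher at 94.9% of Hox genes, against 76.2% of all genes, and the median difference over all members, ties included, was 7.10 percentage points against 2.00. The exceptions were Hoxa4 and Hoxb1. Rank order was kept, with a Spearman correlation between replicates of 0.915 across the 39 Hox genes and 0.962 across all genes, which share the same libraries. Of the covered bases, 72.8% in Hoxa, 72.1% in Hoxb, 65.2% in Hoxc and 60.0% in Hoxd were covered in both. In Hoxd, 14.7% of the cluster was covered in replicate 1 only and 3.4% in replicate 2 only. Over the autosomes replicate 1 covered slightly less than replicate 2, and the part of depth in the difference over the Hox genes was not tested. Of the 219 replicated peaks in the clusters, 210 were overlapped by both replicate lists. Such overlap may follow from how a list of replicated peaks is made. The share over the authors' whole list was not computed, so the count says little about the clusters.

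Other homeobox genes that lie in groups gave the nearest comparison. As means of the replicates, median coverage near the TSS was 52.9% for the Hox genes, against 55.9% for the 6 Dlx genes, which pattern jaw and forebrain, and 45.2% for the 6 Iroquois genes, Irx1 to Irx6. All 12 of these other genes had a promoter peak, against 72.8% of all protein-coding genes, a count of few genes. The TSS base lay in peaks of both replicates at 19 of 39 Hox genes, against 0 of 6 Dlx and 2 of 6 Iroquois genes. Over all protein-coding genes that share was 13.4%. In replicate 1 the base lay in a peak at 24 of 39 Hox, 3 of 6 Dlx and 3 of 6 Iroquois genes. In replicate 2 it did so at 19 of 39, 0 of 6 and 2 of 6. The absence at Dlx genes thus came from replicate 2, and these shares were not tested against each other. Evx1 and Evx2, even-skipped homeobox genes beside Hoxa13 and Hoxd13, differed from each other: Evx1 had 82.8% in replicate 1 and 83.5% in replicate 2, and Evx2 48.6% and 29.4%.

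Genes that act with or upstream of the Hox proteins are TALE homeodomain cofactors and regulators of Hox transcription. All 9 cofactors had a promoter peak, against 72.8% of all protein-coding genes, with a median coverage of 39.3%. Pbx2 had 83.9% in replicate 1 and 78.7% in replicate 2, and Meis1 69.8% and 55.5%. Among 10 regulators of Hox genes, a promoter peak was found at 9, and both counts are of few genes. Over the regulators, median coverage was 52.3%. The retinoic acid receptor gene Rara was covered over the whole window in both replicates, and Rarg over 86.4% and 82.0%, whereas at the record start of Rarb no base was covered. Cdx2, a caudal homeobox gene, had 61.1% in replicate 1 and 54.2% in replicate 2. Thus the cofactors lay nearer to the median of all genes than the Hox genes did.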

How the data were processed

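H3K4me1 ChIP-seq peak lists of 2 biological replicates of E14TG2a.4 cells were analysed. The members and the lists of other genes were chosen with earlier results of these data known. The authors deposited, per the read-me lists, narrowPeak intervals on mm10 (lists of the single replicates, of pooled data and of replicated peaks) and broadPeak intervals on mm9. The mm10 lists deposited by the authors give each peak a signal value and a −log10 q, and the deposited mm9 lists a signal value and a q-value. For the aligner, caller and rule of replication, the entry is: not given in the sources used here. By the same read-me lists, replicate 2 also drew on 1 further file that replicate 1 did not, with its role not stated.

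Intervals were used as deposited, and coverage was the share of bases in their union. Genes came from a RefSeq table of GRCm38.p6, the assembly of mm10, with strands from its promoter table (17492 genes, 22 of them Hox) or by symbol from GENCODE vM1 (3606, 17 of them Hox). Without a strand, the other genes of 21900 were left out. The TSS is the 5′ end of the gene record. Promoter sequences are from RefSeq (GRCm38.p6), and 22 of 39 Hox genes matched. Base composition inside clusters used the mm9 lists, genome and GENCODE vM1 genes, and no coordinate was converted. A promoter peak is a replicated peak within 2 kb of the TSS. Named genes were the 2 highest and 2 lowest of each cluster by coverage within 2 kb, those with the TSS base covered in both replicates, the widest and strongest peaks and the longest gaps. Other Hox genes and intervals named were chosen after their values were seen, and some genes that these rules name are not reported here. With 1 group of 2 replicates no test was made, and no interval for depth could be given. The 50000 strongest peaks, peaks with a −log10 q of 2 or more, the pooled and mm9 lists, other windows, and leaving out each replicate were the alternatives. The other Hoxb span, the flanks without Hoxb and the promoter-table starts were added after seeing the data. Coverage was tested on simulated data. Python 3.11.15, numpy 2.4.6, pandas 2.3.3 and matplotlib 3.10.9 were used.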

Additional observations from a re-analysis of the deposited data

How the results depend on the processing

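Coverage depended most on which list was used; its cause was not tested. With the 50000 strongest peaks of each list, coverage was 15.1% in Hoxa, 12.8% in Hoxb, 13% in Hoxc, 9.68% in Hoxd, 13.5% in gene bodies, 11.7% between genes, 4.44% in the flanks and a median of 11.6% near Hox TSSs. With the pooled list these were 51.0%, 38.9%, 48.2%, 45.3%, 50.2%, 38.1%, 19.2% and 62.3% in the same order, and with the mm9 lists and genes 59.1%, 48.3%, 59.0%, 57.4%, 61.6%, 46.3%, 23.9% and 80.4%. Inside the clusters coverage stayed above the flanks in all of these. Flanks of 50 kb gave 17.0%, and flanks without those of Hoxb 13.2%. Windows of 5 kb on each side of the TSS gave 41.2%. The Hoxb cluster from Hoxb9 to Hoxb1 was covered over 40.3%. Joined across gaps of up to 1 kb, the widest peak became 10478 bp in Hoxa (over Hoxa10 and Hoxa11), 8073 bp in Hoxb (over Hoxb13), 10459 bp in Hoxc (over Hoxc12) and 7198 bp in Hoxd. A −log10 q of at least 2 moved no cluster, flank or TSS value by more than the spread between the replicates. Leaving out a replicate gives the other replicate's value, as printed for each result, and with 2 replicates it shows nothing of stability. No paired analysis was possible because there is only 1 group. The number of Hox genes with a promoter peak ran from 27 with the 50000 strongest peaks to 39. The share of all genes with such a peak among the 50000 strongest was not computed, so the 27 cannot be placed against it. Lists without read counts cannot show whether an uncovered base lacks the mark or was not sequenced deeply enough.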

Other observations

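The clusters also hold non-coding genes, whose bodies were covered unevenly. Hoxa11os, antisense to Hoxa11, had 89.4% in replicate 1 and 76.2% in replicate 2. Hottip, a long non-coding RNA gene beside Hoxa13, had 47.4% and 49.7%, and Hotair, in Hoxc, 28.4% and 26.0%. In the long interval between Hoxb13 and Hoxb9, Gm53 had 59.4% in replicate 1 and 57.0% in replicate 2, while its neighbour Gm51876 had no covered base in either. Hoxa11os, Hotair, Gm53 and Gm51876 lie inside the clusters and Hottip in the posterior flank of Hoxa, so their bases are part of the values given for those regions.

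Of the microRNA genes in the clusters, Mir196b, between Hoxa10 and Hoxa9, was wholly covered in both replicates. Mir196a-2 had 75.3% in replicate 1 and no covered base in replicate 2. Mir10a, Mir10b, Mir196a-1 and Mir615 had no covered base in either replicate. These genes are shorter than most peaks, so each value rests on the edge of a single peak.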
